A study of Mus musculus with 38 samples.

Results

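The transcripts of the proteasome subunits were followed in brown adipose tissue of C57BL/6J mice that were weaned at 3 to 4 weeks of age and kept on a low fat or a high fat diet. The genes were chosen by name: every gene name on the array that starts with Psma, Psmb, Psmc, Psmd, Psme, Psmf or Psmg followed by a digit, without Psmb8, Psmb9 and Psmb10, which code for the catalytic subunits of the immunoproteasome. This gave 46 of the 29411 gene names on the array, and 45 of them were bright enough to be tested among 21856 genes. The 46 names include Psmc3ip, which the naming rule takes although it codes for a protein of meiotic recombination and not for a proteasome subunit.

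The control group LFC was fed a diet with 10% of calories from fat, and the group HFC a diet with increased sucrose and 60% of calories from fat. The groups HF5, HF20 and HF75 were fed the same high fat diet with 5, 20 or 75 µg of Kal-1, an aqueous ethno-botanical formulation. LFC and HFC have 10 arrays each, at Days 6, 10 and 14 and at Weeks 0, 3, 6, 9, 12, 15 and 18. HF5, HF20 and HF75 have 6 arrays each, at Weeks 3 to 18. The labels give 1 array per group and time point and do not say whether RNA of several animals was pooled, although the design text speaks of 3 biological replicates. The time points of a group therefore serve as its replicates, and p values measure the spread between these arrays.

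The proteasome is the large protease that degrades proteins tagged with ubiquitin. Its core particle is a barrel of alpha rings, which form the gate, and beta rings, of which the subunits coded by Psmb5, Psmb6 and Psmb7 cut the substrate. The regulatory particle caps the barrel: its base holds ATPases, coded by the Psmc genes, that unfold the substrate, and its non-ATPase subunits, coded by most Psmd genes, bind and remove ubiquitin. Psme genes code for other activators of the barrel, Psmf1 for an inhibitor, and Psmg genes and Psmd5, Psmd9 and Psmd10 for chaperones of assembly. In brown fat the transcription factor Nfe2l1 is known to sustain proteasome activity in the cold. Nfe2l1 and Nfe2l2 bind antioxidant response elements, and NF-Y and nuclear respiratory factor 1 are other factors with well known binding letters, so these letters were searched in the promoters.

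Promoters were taken from RefSeq sequence of assembly GRCm38.p6, in a window from 250 bases before to 50 bases after the start of the gene, on both strands. They were at hand for 37 subunit genes and 27025 genes in all. Psma8, Psmb1, Psmb2, Psmb7, Psmc3, Psmd3, Psmd7 and Psmg2 had no entry. The core of the antioxidant response element, TGACNNNGC, was found in 6 of the 37 (16.2%) and in 14.0% of all promoters. The 6 were Psmb5, Psmb6, Psmc6, Psmd9, Psmd12 and Psme4. The NF-Y box, CCAAT, was found in 13 of the 37 (35.1%) and in 41.1% of all. The motif of nuclear respiratory factor 1 has G and C letters on both sides of a central A and any base. It was found in 7 of the 37 (18.9%) and in 5.19% of all promoters. The 7 were Psma2, Psma3, Psma4, Psmc4, Psmc5, Psmd14 and Psmg1. A match is a description of letters and was not tested as a binding site.

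The 250 bases before the start are shown for 4 genes, 5′ to 3′ on the strand of the gene, in lower case with each match in capitals. Psmb5 (chr14:54617996-54618245, minus strand) is shown for its TGACNNNGC match at bases -47 to -39 from the start. Psma4 (chr9:54950609-54950858, plus strand), the gene with the smallest p value among the doses, holds the nuclear respiratory factor 1 letters at -61 to -52. Psmd14 (chr2:61711444-61711693, plus strand) holds CCAAT on the other strand at -159 to -155 and the nuclear respiratory factor 1 letters on the other strand at -80 to -71. Psmd4 (chr3:95042615-95042864, minus strand), another gene that differed between doses, holds CCAAT on the other strand at -95 to -91.
Psmb5: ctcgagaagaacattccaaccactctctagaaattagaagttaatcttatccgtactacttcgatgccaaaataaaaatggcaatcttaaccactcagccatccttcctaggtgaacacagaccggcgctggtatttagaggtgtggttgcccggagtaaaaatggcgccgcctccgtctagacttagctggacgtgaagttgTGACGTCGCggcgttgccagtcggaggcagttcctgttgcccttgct
Psma4: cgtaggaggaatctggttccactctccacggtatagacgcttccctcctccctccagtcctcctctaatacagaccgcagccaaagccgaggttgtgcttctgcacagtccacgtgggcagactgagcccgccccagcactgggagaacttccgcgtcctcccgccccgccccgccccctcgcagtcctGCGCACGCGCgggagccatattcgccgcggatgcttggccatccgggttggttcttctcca
Psmd14: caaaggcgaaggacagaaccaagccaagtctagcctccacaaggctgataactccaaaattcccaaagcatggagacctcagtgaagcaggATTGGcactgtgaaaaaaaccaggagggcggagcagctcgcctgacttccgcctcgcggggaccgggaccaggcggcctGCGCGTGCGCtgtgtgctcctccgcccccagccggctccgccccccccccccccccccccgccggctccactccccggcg
Psmd4: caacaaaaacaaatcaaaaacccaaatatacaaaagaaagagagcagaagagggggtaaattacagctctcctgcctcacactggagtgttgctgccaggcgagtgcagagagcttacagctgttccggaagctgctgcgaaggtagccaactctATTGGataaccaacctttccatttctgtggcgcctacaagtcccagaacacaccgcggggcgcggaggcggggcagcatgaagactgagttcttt

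All values below are log2 of the background-subtracted Cy3 signal minus the 75th percentile of that array, so that 1 unit is a 2-fold difference. Each gene is given by its brightest probe, and the level of one probe was not set against that of another. Of the 46 genes, 41 were well above background on all 38 arrays. Psmb11, which codes for a core subunit of the thymus, was well above background on 2 of 38 arrays and was not tested. Psma8, a core subunit gene of the testis, was well above background on 19 arrays, Psmc3ip on 35, and Psmd13 and Psmf1 on 36 each. Psme2 was saturated on 3 arrays, and Psma2, Psmb3 and Psmd3 on 1 array each. On the HFC array of Day 10, where 1079 spots were marked as outliers, Psma6, Psmc1, Psmc3, Psmc6 and Psmg1 were dropped, and their HFC against LFC values rest on 9 time points.

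The arrays differed in brightness. The 75th percentile of an array lay anywhere between 35.1 and 1209 units of intensity (median 183). The 11 arrays above 600 units are called bright here and the other 27 dim, a boundary known from earlier work on these data. Bright arrays were unevenly spread: 4 of 10 in LFC, 2 of 10 in HFC, 0 of 6 in HF5, 4 of 6 in HF20 and 1 of 6 in HF75. The proteasome genes differed by brightness also after scaling to the 75th percentile. Between bright and dim arrays, 43 of the 45 tested genes were higher on the bright arrays, with a median difference of 0.78, while the median over all genes was -0.32 and 39.6% of all genes were higher. Psmg1 (1.80), a core chaperone, Psmd8 (1.76), a subunit of the lid of the regulatory particle, Psma4 (1.58), an alpha ring subunit, Psmb7 (1.52) and Psmb5 (1.46) had the widest differences, and Psme1 (-0.13), Psmg4 (-0.03), Psmd7 (0.07) and Psme2 (0.07) the narrowest. By role, the median difference was 1.03 for the 7 alpha ring genes, 0.90 for the 7 beta ring genes, 0.66 for the 6 base ATPases, 0.85 for the 11 non-ATPases and 0.34 for the 4 activators. The markers of red cells moved with brightness in the opposite sense: all 6 erythroid genes were lower on bright arrays, with a median of -3.05, and the mean level of that list was -1.68 to 0.28 on bright and 0.41 to 3.80 on dim arrays. What sets array brightness, and its part in the differences between groups, was not tested. The comparisons over the proteasome genes below are therefore also given with brightness taken into account.

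**Figure D1:**
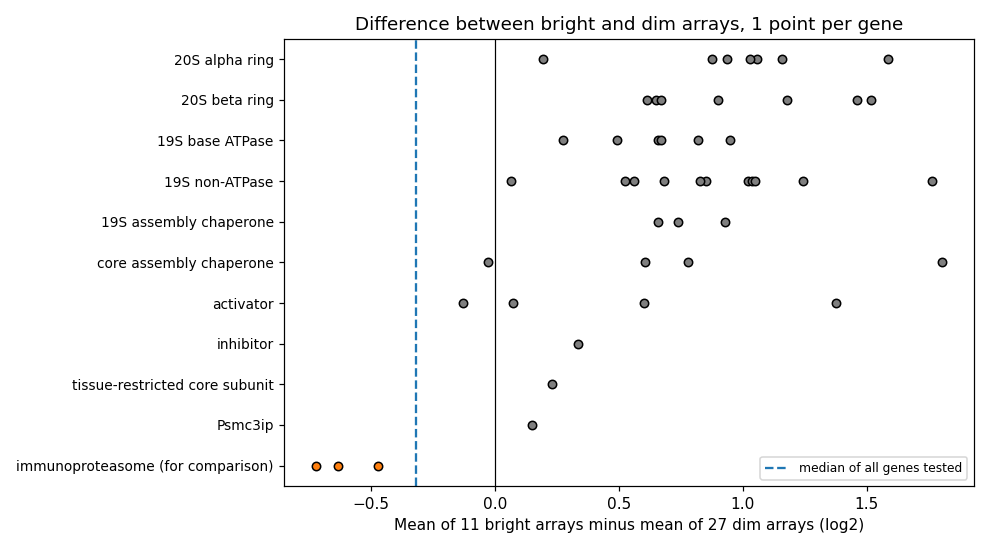
Mean log2 level on the 11 bright arrays minus that on the 27 dim arrays, one grey point for each of the 45 tested proteasome genes in a line per role, with Psmb8, Psmb9 and Psmb10 in orange below and the median of all genes, -0.32, as a dashed line. All grey points but those of Psme1 and Psmg4 lie above 0, and Psmg1 is highest at 1.80.

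The HF75 array of Week 3 stands apart from its label. The mean level of 10 brown adipocyte markers was -1.84 on it, and 1.18 to 4.58 on the other 37 arrays. Its erythroid level, -1.68, was also the lowest of all arrays, and its median over the proteasome genes was 2.14. Medians of the proteasome genes in the comparisons of HF75 with HFC, LFC and HF5 are also given without this array. For HF75 against HF20 the number of genes called without it is given, but not the median. Skeletal muscle markers ranged from -5.59 to 5.09 over the arrays.

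The median level of the 45 genes per array was 2.86 ± 0.62 (SD, n = 10) in LFC, 2.42 ± 0.41 (SD, n = 10) in HFC, 2.46 ± 0.26 (SD, n = 6) in HF5, 3.08 ± 0.44 (SD, n = 6) in HF20 and 2.24 ± 0.20 (SD, n = 6) in HF75. Within the dim arrays the groups lay closer together: the median of these levels was 2.44 in LFC, 2.28 in HFC, 2.45 in HF5, 2.57 in HF20 and 2.23 in HF75. The ranges of all 5 groups overlapped there, with the pair of dim HF20 arrays at 2.53 and 2.62. Within the bright arrays LFC ran from 3.31 to 3.82, the pair of HFC arrays stood at 2.90 and 3.16, HF20 ran from 2.98 to 3.61, and the HF75 array of Week 3 stood at 2.14.

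**Figure D2:**
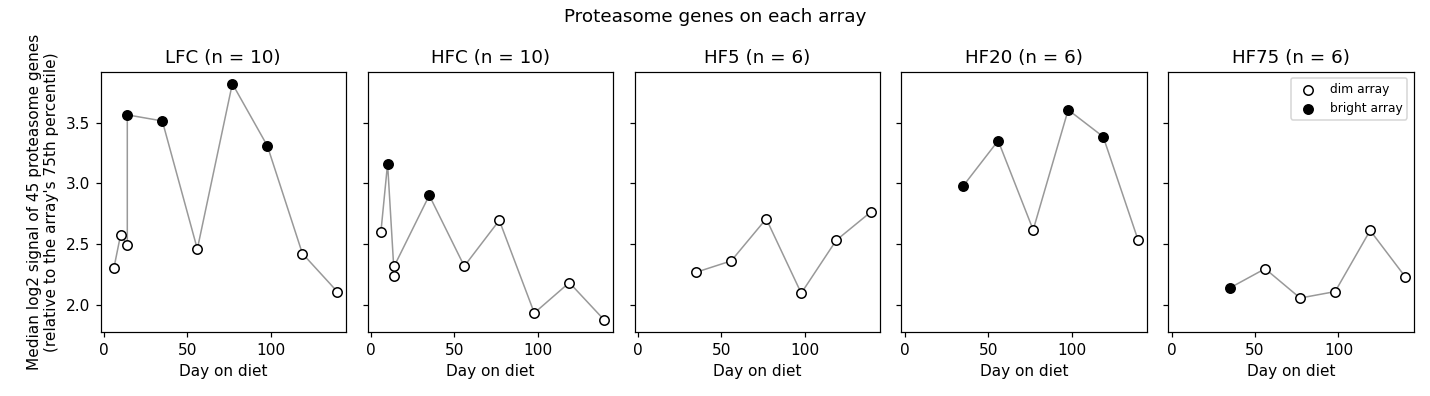
Median log2 level of the 45 proteasome genes on each of the 38 arrays (vertical axis, relative to the 75th percentile of the array) against the day on diet, 1 panel per group, with bright arrays filled and dim arrays open. Dim arrays lie between 1.88 and 2.77 and bright arrays between 2.14 and 3.82.

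The first comparison asked how the high fat diet alone differs from the low fat diet. The median over the proteasome genes was below 0 in HFC minus LFC at 8 of 10 time points, but no gene passed the test. Over 10 time points, 43 of 45 genes had a value below 0, with a median of -0.40 against 0.06 over all genes. None was called at an adjusted p of 0.05 in limma, as for all genes (0%), and 8 were lower at an unadjusted p under 0.05, where 2.2% of all genes were. Psmd1, the largest subunit of the regulatory particle, ran from 1.07 over a median of 1.66 to 2.61 in LFC and from 0.44 over 1.05 to 1.83 in HFC. The groups overlapped, and HFC was below LFC at 9 of 10 time points, with a difference of -0.66 ± 0.24 (SE, adjusted p = 0.644).

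Psmb4, a beta ring subunit without catalytic activity, ran from 3.65 over a median of 4.30 to 5.56 in LFC and from 3.19 over 4.09 to 4.96 in HFC. Its difference was -0.47 ± 0.18 (SE, adjusted p = 0.644), and HFC was lower at 9 of 10 time points. Psmc4, a base ATPase, ran from 2.20 over 2.83 to 4.28 in LFC and from 1.88 over 2.63 to 3.14 in HFC. It differed by -0.50 ± 0.20 (SE, adjusted p = 0.644), again with 9 of 10 time points below 0 and wide overlap of the groups. Psmc6, another base ATPase, gave -0.63 ± 0.25 at 8 of 9 time points. At the other end stood Psmc3ip and Psme1, the alpha subunit of the activator that interferon induces, both at 0.00. The Psme1 levels were 3.89 to 5.16 with a median of 4.16 in LFC and 3.63 to 4.66 with a median of 4.44 in HFC, which overlapped almost fully.

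The catalytic subunits showed the same overlap. Psmb5, the chymotrypsin-like subunit, had a lowest, median and highest level of 0.06, 2.39 and 4.59 in LFC and of 1.74, 2.29 and 3.53 in HFC. Its value of 0.06 came from the LFC array of Day 10, and its 4 highest LFC values, 3.78 to 4.59, all came from bright arrays. Psmb6, the caspase-like subunit, had 3.63, 4.06 and 4.99 in LFC and 3.26, 3.58 and 4.45 in HFC, a difference of -0.43 ± 0.22 (SE, adjusted p = 0.644). Psmb7, the trypsin-like subunit, had 0.31, 1.52 and 3.11 in LFC and 0.35, 1.33 and 2.26 in HFC, a difference of -0.52 ± 0.31 (SE, adjusted p = 0.644). Among regulatory subunits, Psmd4, a ubiquitin receptor, had 2.55, 3.23 and 4.17 in LFC and 2.40, 2.93 and 3.80 in HFC. Psmd14, the enzyme that removes ubiquitin chains, had 2.11, 2.79 and 4.25 in LFC and 2.05, 2.55 and 3.37 in HFC, and differed by -0.51 ± 0.25 (SE, adjusted p = 0.644). Psme4, an activator known for its part in histone turnover, had 2.65, 3.24 and 4.87 in LFC and 2.38, 3.04 and 4.42 in HFC.

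**Figure D3:**
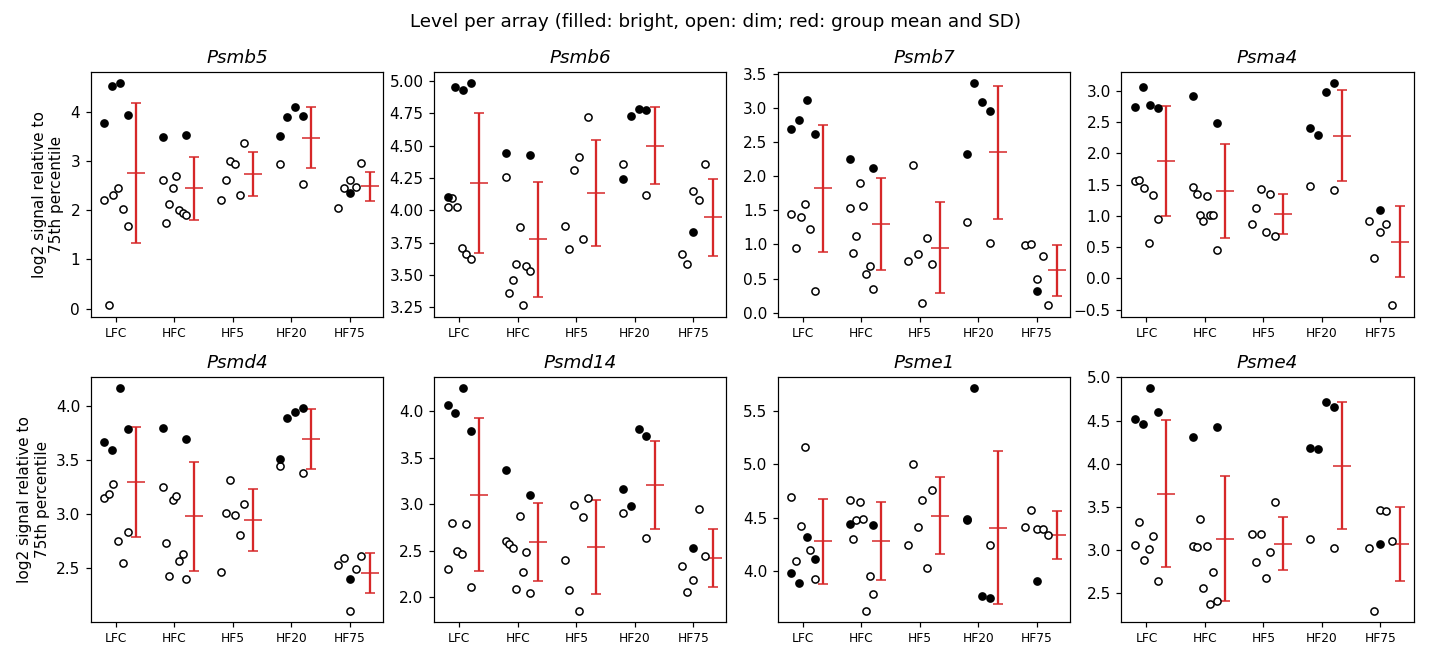
Log2 level (vertical axis, relative to the 75th percentile of the array) of 8 proteasome genes on each array, by group, with bright arrays filled, dim arrays open, and the mean and SD of each group in red. Psma4, Psmb7 and Psmd4 are the genes whose HF75 arrays all lie below all HF20 arrays, and Psme1 overlaps in all groups.

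Over Weeks 3 to 18 alone, all 45 genes lay below 0 in HFC, with a median of -0.56 (all genes 0.07). None was called (2 of all genes, 0.00915%), and 18 were lower at an unadjusted p under 0.05, against 4.01% of all genes. The alpha ring had a median of -0.69, the non-ATPases -0.62, the base ATPases -0.58, the beta ring -0.56 and the activators -0.39. Psmd1 (-0.88 ± 0.26, SE, adjusted p = 0.335), Psmd12 (-0.87 ± 0.30) and Psmd11 (-0.60 ± 0.22), all subunits of the regulatory particle, were lower at 6 of 6 time points. Psmc3ip (-0.07) and Psme1 (-0.11) were again nearest to 0.

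The size of this difference moved with the brightness of the paired arrays. The 4 time points with a wide gap were Day 10, with a bright HFC and a dim LFC array and a median of 0.59, and Weeks 0, 9 and 12, with a bright LFC and a dim HFC array and medians of -1.01, -1.06 and -1.25. At these weeks 23, 26 and 33 of the proteasome genes were lower in HFC by 2-fold or more, where 21.5%, 18.2% and 20.3% of all genes were. At Week 9 the LFC and HFC arrays were also scanned on different days. The HFC array of Week 12 had 78.8% of spots well above background and a median over all tested genes of -0.70. Both values were the highest of all arrays. At the 6 time points where both arrays were of one class the median lay between -0.42 and 0.13, and 0 to 3 genes were 2-fold lower, where 3.26% to 16.8% of all genes were. With brightness as a covariate the median over all 10 time points was -0.21, over the 6 time points of one class -0.20 with 40 of 45 genes below 0, and among dim arrays alone -0.13 with 37 below 0. For Weeks 3 to 18 these values were -0.27, -0.25 and -0.10. Without the HFC array of Day 10 the median was -0.52 and 26 genes were lower at an unadjusted p under 0.05, where 17.0% of all genes differed in either direction. Without Week 12 the value for Weeks 3 to 18 was -0.39 with 1 such gene, where 3.21% of all genes differed. Markers of other cells differed between these groups as well. Over 10 time points 8 of 8 lymphocyte genes were above 0 in HFC minus LFC with a median of 1.12, and 6 of 6 erythroid genes with a median of 0.90. The mean level of the lymphocyte list was -5.45 to -2.67 in LFC and -4.63 to -1.53 in HFC, and that of the erythroid list -1.14 to 3.17 and -0.47 to 3.54. At Weeks 3 to 18 these medians were 1.27 and 1.38, while 10 of 10 skeletal muscle genes (-0.50) and 7 of 7 macrophage genes (-0.31) were below 0. None of these markers was called, and their part in the result was not tested.

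**Figure D4:**
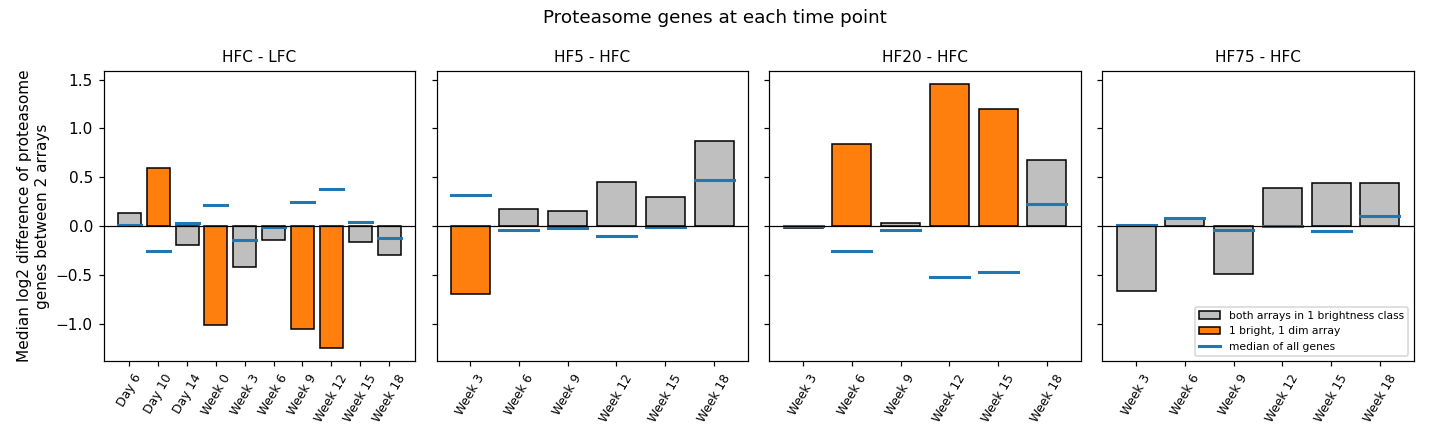
Median change of the 45 proteasome genes (log2) between pairs of arrays of the same time point, for HFC against LFC and each dose against HFC. Bars are grey for arrays of one brightness class and orange for a bright and a dim array, and blue lines give the median of all genes. HFC minus LFC is -1.01, -1.06 and -1.25 at Weeks 0, 9 and 12, where a bright LFC array meets a dim HFC array.

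The second comparison asked whether Kal-1 changed the high fat values. With 5 µg the differences from HFC were small: 37 of 45 were above 0 with a median of 0.17, none was called (0% of all genes) and 1 was higher at an unadjusted p under 0.05 (3.41% of all genes). This was Psmg4, a core chaperone, at 0.42 ± 0.18 (SE, adjusted p = 0.822) and higher at 6 of 6 time points. Psme2 gave 0.33 ± 0.19 and Psmd7 0.30 ± 0.18. The ends of the range were Psma8 (0.64) and Psmb3 (0.49) above, and Psmc3ip (-0.40) and Psme3 (-0.37), an activator of the nucleus, below. Psma8 was well above background on 1 of 6 HF5 arrays. All 6 HF5 arrays were dim, and with brightness as a covariate the median was 0.33 and 41 of 45 genes were above 0, with none called.

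With 20 µg all 45 genes lay above HFC, with a median of 0.71 against -0.20 over all genes. None was called (0% of all genes, smallest adjusted p for the proteasome genes 0.118), but 33 were higher at an unadjusted p under 0.05, where 13.2% of all genes were. They included 7 of 7 beta ring genes, 6 of 7 alpha ring genes, 5 of 6 base ATPases, 9 of 11 non-ATPases and 1 of 4 activators. Psmd9, an assembly chaperone of the base, differed by 0.93 ± 0.25 (SE, adjusted p = 0.118), Psmd8 by 1.52 ± 0.49 and Psma4 by 1.08 ± 0.35. Psmb7 followed with 1.16, and Psmc3ip (0.14) and Psme3 (0.20) were lowest. Psmc3, a base ATPase, was the only gene of the set with all 6 HF20 arrays above the 6 HFC arrays of the same weeks, at 2.26 to 2.72 against 1.10 to 2.23, where 0.0458% of all genes had this order. The skeletal muscle markers had a median change of 1.67 and the erythroid markers of -1.54 in this comparison, with 10 of 10 above and 6 of 6 below 0; their part in the result was not tested.

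Psmb5 reached 2.53, 3.70 and 4.09 (lowest, median, highest) in HF20, 2.21, 2.78 and 3.38 in HF5, and 2.04, 2.46 and 2.96 in HF75. Its 4 HF20 values of 3.51 to 4.09 all came from bright arrays, and its dim HF20 arrays, at 2.94 and 2.53, lay within the range of HF5. Psmb6 had 4.12, 4.54 and 4.78 in HF20, 3.70, 4.09 and 4.72 in HF5 and 3.59, 3.96 and 4.36 in HF75. All 3 groups overlapped for both genes. Psmd14 had 2.64, 3.07 and 3.82 in HF20 and 2.06, 2.39 and 2.95 in HF75, and Psme4 had 3.03, 4.18 and 4.71 in HF20 and 2.30, 3.09 and 3.46 in HF75, with overlap in both. Psme1 had medians of 4.54 in HF5, 4.36 in HF20 and 4.40 in HF75, within the spread of each group. Psmb4 had 4.26, 4.50 and 4.84 in HF5, 4.37, 4.85 and 5.12 in HF20, and 4.17, 4.26 and 4.60 in HF75.

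By week, the median of HF20 minus HFC was 0.84, 1.46 and 1.19 at Weeks 6, 12 and 15, with bright HF20 and dim HFC arrays, and -0.02, 0.03 and 0.67 at Weeks 3, 9 and 18, where both were of one class. At Weeks 6, 12 and 15, 18, 35 and 31 genes were higher by 2-fold or more, against 22.2%, 21.8% and 21.3% of all genes. At Week 6 the HF20 and HFC arrays were scanned on different days. Week 12 rests on the HFC array with the highest share of spots well above background. With brightness as a covariate the median was 0.27 and 1 gene was higher at an unadjusted p under 0.05, and over the 3 weeks of one class it was 0.24 with 0 such genes. Without Week 3, 12 proteasome genes and 3592 of all genes were called. With quantile normalization, which moved the median of all genes to 0.04, the median of the proteasome genes was 0.50.

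With 75 µg the median against HFC was 0.02, with 25 genes above and 20 below 0, and none was called (0% of all genes). Psmg4 was higher at 6 of 6 time points by 0.46 ± 0.18 (SE, adjusted p = 0.538), and 1 gene, Psmg4 itself, passed an unadjusted p of 0.05 (4.86% of all genes). Psma4 was lower at 6 of 6 time points by -0.61 ± 0.35 (SE, adjusted p = 0.572), Psmd4 by -0.48 ± 0.26, and Psmd13, a subunit of the lid, by -0.59. Psma8 (0.61) and Psma5 (0.47), an alpha ring gene, were highest. In HF75 Psma8 was well above background on 2 of 6 arrays and Psmd13 on 4 of 6. In all 6 pairs both arrays were of one brightness class, so that the median stayed at 0.02 with brightness as a covariate. The weeks went both ways: the median was -0.66 at Week 3, where 12 genes were 2-fold lower (23.4% of all genes), -0.49 at Week 9, and 0.39 to 0.44 at Weeks 12, 15 and 18. Leaving out the Week 3 array of HF75 gave 0.09 with 19 genes below 0, without single time points it ran from -0.10 to 0.16, and with normexp background correction it was -0.27 with 37 below 0, so it has no settled direction. Taking the 3 doses together against HFC, the median was 0.28 and none was called (0% of all genes), with Psmg4 at 0.38 ± 0.14, Psmd2, a scaffold of the base, at 0.52 ± 0.23 and Psma5 at 0.52 ± 0.24. That median was 0.22 with brightness as a covariate and 0.33 without the HF75 array of Week 3. The comparisons of the doses with HFC share the HFC arrays.

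Against LFC of the same weeks, HF5 had a median of -0.40 and none called (2 of all genes, 0.00915%), with Psma3 at -0.85 ± 0.30, Psmd1 at -0.76 ± 0.26, Psme3 at -0.95 ± 0.38 and Psmb7 at -0.99. HF20 had a median of 0.14 and none called (0%), with Psmd9 at 0.59 ± 0.25, Psmd8 at 0.82 ± 0.49 and Psmd4 at 0.41 ± 0.26 above, and Psme3 (-0.37) and Psmc5 (-0.18) below. HF75 had a median of -0.54 and none called (6 of all genes, 0.0275%), and 19 genes were lower at an unadjusted p under 0.05 (9.56% of all genes). Psma4 gave -1.31 ± 0.35 (SE, adjusted p = 0.216), Psmd1 -0.97 ± 0.26 and Psmb7 -1.33 ± 0.41. With brightness as a covariate the medians were 0.05, 0.00 and -0.19 for HF5, HF20 and HF75, and among dim arrays 0.17, 0.27 and 0.03. The dim arrays left 2 in HF20, and its array and that of LFC were both dim only at Week 18. Without the HF75 array of Week 3 the HF75 median was -0.51, with 12 genes at an unadjusted p under 0.05 (13.4% of all genes, either direction). These comparisons share the LFC arrays, 3 of 6 of which were bright.

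The third comparison asked whether the doses differed from each other, and here proteasome genes passed the test. In HF75 against HF20, 14 of 45 genes fell and 0 rose, where 12.8% of all genes fell and 12.8% rose. The median was -0.64 against 0.29 over all genes, and 43 genes were below 0. By role, the genes that fell were 1 of 7 alpha ring genes (Psma4), 3 of 7 beta ring genes (Psmb1, Psmb2 and Psmb7), 3 of 6 base ATPases (Psmc2, Psmc3 and Psmc6), 5 of 11 non-ATPases (Psmd1, Psmd4, Psmd6, Psmd8 and Psmd13), 1 of 3 chaperones of the regulatory particle (Psmd9), 1 of 4 core chaperones (Psmg1) and 0 of 4 activators. All but Psmb2 (5 of 6) were lower in HF75 at 6 of 6 time points.

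Psma4 levels from Week 3 to Week 18 were 2.41, 2.30, 1.47, 2.98, 3.13 and 1.41 in HF20, and 1.09, 0.92, 0.33, 0.75, 0.87 and -0.43 in HF75. The groups did not overlap, and the dim HF20 arrays of Weeks 9 and 18 were the lowest of their group and still above every HF75 array. The difference was -1.69 ± 0.35 (SE, adjusted p = 0.0136), and HF5, at 0.68 to 1.43, overlapped with both.

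Psmd4 levels were 3.51, 3.89, 3.44, 3.95, 3.99 and 3.38 in HF20, and 2.40, 2.53, 2.59, 2.11, 2.50 and 2.61 in HF75. These did not overlap either, with a difference of -1.24 ± 0.26 (SE, adjusted p = 0.0143), and HF5 spanned 2.46 to 3.32. Psmb7 levels were 2.32, 3.36, 1.34, 3.09, 2.96 and 1.02 in HF20, and 0.31, 0.99, 1.01, 0.49, 0.83 and 0.11 in HF75. The lowest HF20 array, of Week 18, was barely above the highest HF75 array, and the difference was -1.73 ± 0.41 (SE, adjusted p = 0.0146). These were the 3 genes of the set without overlap, an order found in 3.77% of all genes.

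Psmd8 levels were 3.08, 3.35, 1.98, 3.81, 3.35 and 1.10 in HF20 and 0.53, 0.97, 1.11, 0.73, 0.74 and 0.62 in HF75. Only the HF20 array of Week 18 fell within the HF75 range, and the difference was the widest of the set, -1.99 ± 0.49 (SE, adjusted p = 0.0152). Psmd13 ranged from -1.84 to 0.01 in HF20 and from -3.38 to -1.20 in HF75 (-1.57 ± 0.38, adjusted p = 0.0147), where it was well above background on 4 of 6 arrays. Psmg1 ranged from 0.00 to 2.59 and from -0.97 to 0.46 (-1.50 ± 0.43, adjusted p = 0.0204), and Psmc3 from 2.26 to 2.72 and from 0.95 to 2.36 (-0.84 ± 0.22, adjusted p = 0.0178). All 3 overlapped. Psmd9 (-0.89, adjusted p = 0.0201), Psmb1 (-0.93, adjusted p = 0.0234) and Psmd1 (-0.80, adjusted p = 0.0321) complete the 10 smallest p values. Psmg4 (0.20) and Psma8 (0.06) were the genes above 0.

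**Figure D5:**
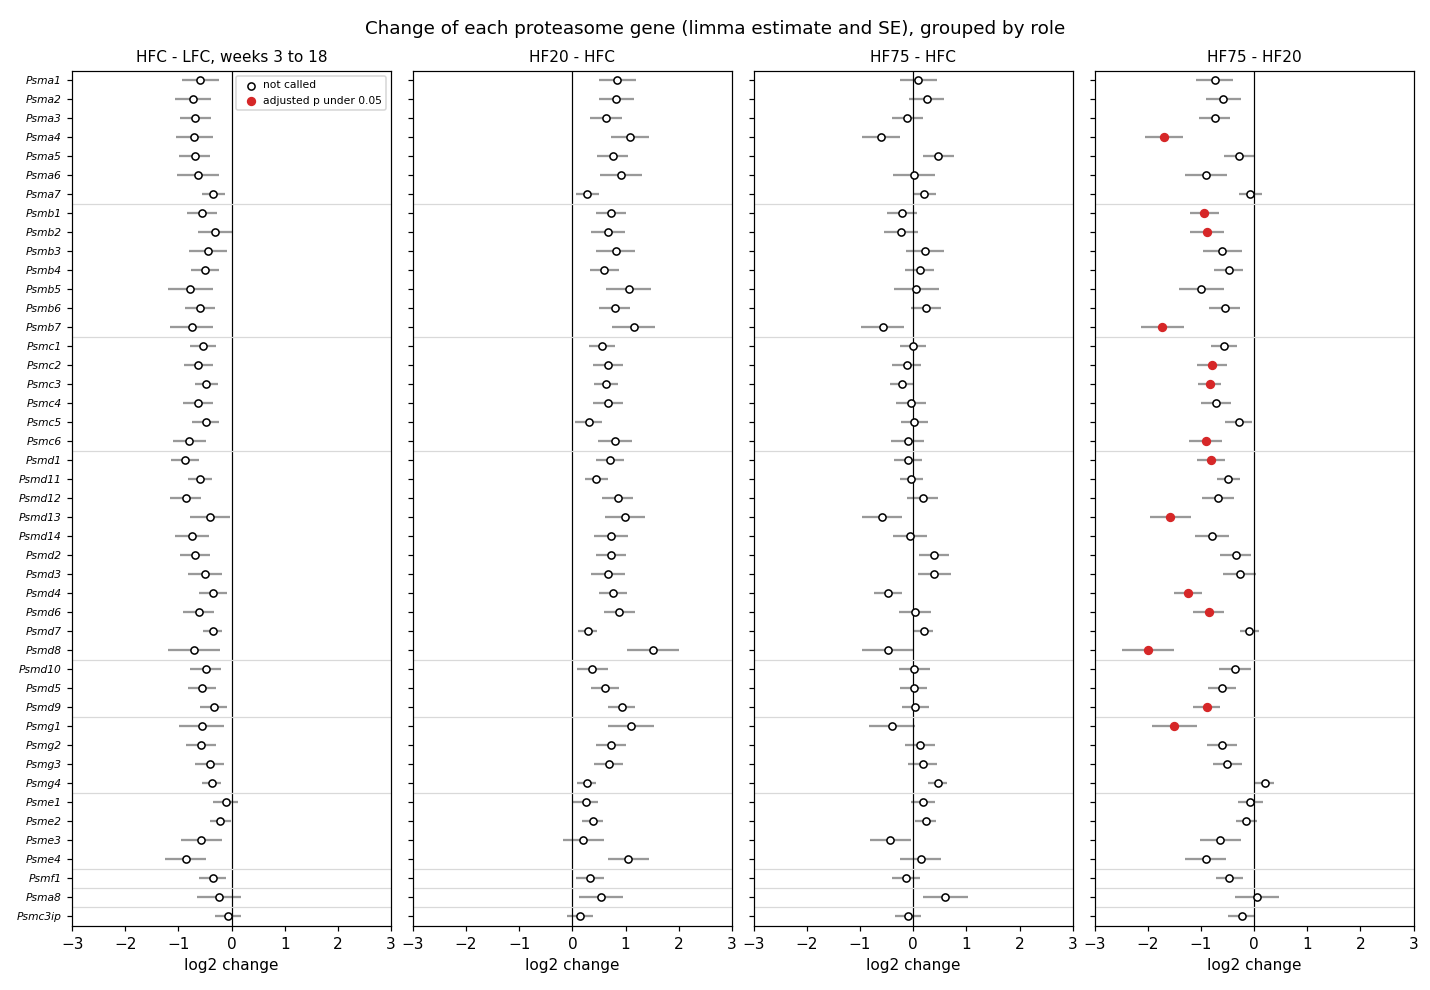
Change in log2 level with its standard error for the 45 proteasome genes, in role order, for HFC against LFC at Weeks 3 to 18, HF20 and HF75 against HFC, and HF75 against HF20, with the genes called in red. In HF75 minus HF20 all points but those of Psmg4 and Psma8 lie below 0, and the widest is Psmd8 at -1.99.

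These 14 calls were lost when brightness, with 4 of 6 HF20 arrays and 1 of 6 HF75 arrays bright, was taken into account. With brightness as a covariate 0 genes of the set were called, the median was -0.21, and Psma4 (-1.01 ± 0.26, SE, adjusted p = 0.170) and Psmd4 (-0.75 ± 0.20, SE, adjusted p = 0.177) had the smallest p values. Among dim arrays alone 0 were called, with a median of -0.13. The dim arrays left 2 in HF20, so that a count of 0 there says little. Without the HF75 array of Week 3, 7 genes of the set were called, without Week 3 in all groups 8, and without Week 6, 12 or 15, 0. Calls over all genes moved as well. They were 5589 (25.6%) with the settings used and 0 with brightness as a covariate or on dim arrays alone. They also fell without the HF75 array of Week 3, and lay between 0 and 6652 without single time points. The loss of calls was therefore not particular to the set. Nor did the markers of the tissue stay level: the brown adipocyte list had a median of -2.10 in HF75 against HF20, with 4 of 10 genes lower by the test, the skeletal muscle list -1.02 and the erythroid list 1.07. The white adipocyte list had a median of -2.22, with 3 of 5 genes lower and 1 higher by the test, where 12.8% of all genes fell and 12.8% rose. These marker values include the HF75 array of Week 3. The part of other cells in the dissected tissue was not tested, and in whole tissue fewer cells of a type and less RNA per cell cannot be told apart. At the weeks where both arrays were dim, Weeks 9 and 18, the median over the genes was -0.56 and -0.14, and 2 and 3 genes were 2-fold lower (8.96% and 9.29% of all genes). At Week 3, where both arrays were bright, it was -0.75 and 16 genes were 2-fold lower (27.6% of all genes), on the HF75 array that stands apart. At Weeks 6, 12 and 15, with a bright HF20 and a dim HF75 array, it was -0.72, -1.22 and -0.87.

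Tested over all 3 doses at once with the moderated F test of limma, 8 of 45 genes differed (13.4% of all genes). They were Psma4, Psmd4 and Psmb7 (adjusted p = 0.0343 each), Psmd13 (0.0348), Psmd8 (0.0352), Psmg1 (0.0401), Psmd9 (0.0410) and Psmc3 (0.0436). None was called with brightness as a covariate or without the HF75 array of Week 3. HF20 against HF5 had a median of 0.55 with none called (0% of all genes). In that contrast 18 genes were higher at an unadjusted p under 0.05 (13.5% of all genes), led by Psma4 (1.26 ± 0.35, adjusted p = 0.0669), Psmb7 (1.40 ± 0.41), Psmd13 (1.23 ± 0.38) and Psmd8 (1.46 ± 0.49), while Psmg4 (-0.16) and Psme1 (-0.11) were lowest. With brightness as a covariate its median was -0.068. HF75 against HF5 had a median of -0.14 with none called (0%) and none at an unadjusted p under 0.05 in either direction (1.02% of all genes higher and 1.3% lower). Psmd4 gave -0.49 ± 0.26 and was lower at 6 of 6 time points. The median was -0.28 with brightness as a covariate and -0.08 without the HF75 array of Week 3. In the trend over the order of the doses none was called (0% of all genes), and the smallest p belonged to Psma5, with 0.19 ± 0.09 per step (adjusted p = 0.959). The median slope was 0.05 per step, -0.003 with brightness as a covariate and 0.08 without the HF75 array of Week 3.

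Over the days on diet in LFC and HFC, none of the 45 genes was called (1.63% of all genes), and 42 had a slope below 0. Psmd13 changed by -0.07 ± 0.02 per week (SE, adjusted p = 0.0681), Psmd9 by -0.06 ± 0.02 (adjusted p = 0.0811) and Psmd8 by -0.07 ± 0.03 (adjusted p = 0.180). With brightness as a covariate these 3 genes passed the test, at -0.06 per week for Psmd13 (adjusted p = 0.0266), -0.05 for Psmd9 (adjusted p = 0.0170) and -0.05 for Psmd8 (adjusted p = 0.0323), where 7.93% of all genes did. As a share, 3 of 45 was no larger than that of all genes, so these calls show nothing particular to the set. Day on diet goes with the age of the mice and with the scan day, and these cannot be told apart. For the difference in slope between HFC and LFC none was called (0% of all genes), with Psmg2, a core chaperone, at -0.07 ± 0.03 per week (adjusted p = 0.346). None of the set was called with brightness as a covariate either, where 3.06% of all genes were.

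The genes of the set varied together over the arrays. The median pairwise correlation over 990 pairs was 0.604 on 38 arrays, 0.272 on the 27 dim arrays and 0.635 on the 11 bright arrays, where the median over pairs of all genes was 0.025, 0.013 and 0.021. The arrays share scaling and brightness, so these values are a description. Among dim arrays Psmc2 (0.78), Psma6 and Psma2 (0.75 each) followed the mean of the other genes most closely, and Psmf1 (-0.06), Psmb2 (-0.01) and Psme3 (0.01) least. Psme1 did not follow the others over 38 arrays (-0.04) but did so in part among dim arrays (0.47).

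Probes of one gene often disagreed: of 17 further probes of 14 genes, 8 correlated below 0.5 with the one used over 38 arrays. The probes of Psma4 correlated at 0.98 over 38 arrays and gave -1.69 and -1.64 in HF75 against HF20, and those of Psmd14 correlated at 0.90. The other probe of Psmd9 did not follow its brightest one (-0.02) and gave 0.12 in place of -0.89 in that comparison, and a further probe of Psmd12 gave 0.56 in place of -0.67. Further probes of Psmd2 (-1.14), Psmc5 (-0.99) and Psmf1 (-1.23) gave wider differences than the ones used (-0.35, -0.29 and -0.47). The other probes of Psmf1 correlated at -0.41 and 0.17 with the one used. Psme2 has a near-identical copy, Psme2b, and its probe may read both.

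The subunits that replace the catalytic ones in the immunoproteasome were measured on the same arrays. In HF75 against HF20 none of the 3 was called, with Psmb8 at 0.11 ± 0.37, Psmb9 at 0.01 ± 0.39 and Psmb10 at 0.33 ± 0.35. The median Psmb8 level was 4.31 in LFC (2.64 to 5.57), 4.23 in HFC (2.90 to 5.08), 4.27 in HF5 (4.13 to 4.77), 4.33 in HF20 (2.83 to 6.37) and 4.29 in HF75 (3.86 to 4.79), and all groups overlapped. Between bright and dim arrays they differed by -0.63 (Psmb8), -0.72 (Psmb9) and -0.47 (Psmb10), against 0.78 for the median of the proteasome genes.

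Other genes of the pathway were 29 tested of a list of 36 that covers ubiquitin enzymes, shuttle factors, chaperones and the transcription factors. In HFC against LFC at Weeks 3 to 18 their median was -0.42, against 0.07 over all genes. None was called (2 of all genes, 0.00915%), and 7 were lower at an unadjusted p under 0.05, where 4.01% of all genes were. Over all time points Txnl1, a thioredoxin bound to the regulatory particle, gave -0.58 ± 0.19 (SE, adjusted p = 0.644) and Usp14, a ubiquitin protease of that particle, -0.50 ± 0.21 (SE, adjusted p = 0.644). Nfe2l1 had means of 5.40 ± 0.46 (SD, n = 10) in LFC, 5.09 ± 0.23 (SD, n = 10) in HFC, 5.88 ± 0.78 (SD, n = 6) in HF5, 5.51 ± 0.36 (SD, n = 6) in HF20 and 5.74 ± 0.38 (SD, n = 6) in HF75. It was higher in HF5 than in HFC at 6 of 6 time points by 0.73 ± 0.26 (SE, adjusted p = 0.822), which did not pass the test and rested largely on Week 12 (7.26 against 4.93). Without Week 12 the mean difference was 0.41 ± 0.33 (SD, n = 5). Nfe2l2, Pomp, a core assembly factor, and Adrm1, a ubiquitin receptor, gave -0.16, -0.27 and -0.27 in HFC against LFC, and none was called. In HF75 against HF20, 3 of the 29 fell and 1 rose, where 12.8% of all genes fell and 12.8% rose. Among them Uba1, the ubiquitin-activating enzyme (-1.96, adjusted p = 0.0141), and Ube2k, a ubiquitin-conjugating enzyme (-0.92, adjusted p = 0.0221), fell, and Ubqln2, a shuttle factor, rose (1.03, adjusted p = 0.0254). With normexp background correction, with brightness as a covariate or on dim arrays alone no tested gene was called in this comparison.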

How the data were processed

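Brown adipose RNA of 38 samples was labelled with Cy3 and hybridised to a custom Agilent mouse array, 1 colour, with arrays on 32 slides scanned on 12 days. Arrays of a time point were scanned on the same day, except at Weeks 6 and 9. HF20 and HF75 at Week 6, and LFC at Week 9, were scanned on another day than the other groups. The deposited scanner files hold intensity values from Feature Extraction, version 10.5.1.1 per the file headers (9.1 in the submitters' processing notes), background-subtracted but not scaled between arrays. A deposited table of the authors' log2 values relative to the LFC array of each time point was not used. Processed signal was scaled to the 75th percentile of each array on the log2 scale, each gene name was represented by its probe of highest mean, and the 21856 names that passed the background flag on 6 or more arrays were fitted with limma 3.58.1 (R 4.3.3, with version 1.17.8 of the package data.table), with the time point as a block, two-sided, and Benjamini-Hochberg adjustment over all genes at 0.05. HFC against LFC used 20 arrays, and the doses were compared on the 30 arrays of Weeks 3 to 18. Days on diet were 14 plus 7 per week. The trend over days had no term for the time point.

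The labelled time point pairs the arrays in part: deviations of LFC and HFC arrays of one time point correlated at -0.25 to 0.67, above 0.1 in 7 of 10 pairs. For HFC and HF5 the range was -0.10 to 0.54, above 0.1 in 5 of 6 pairs. It was -0.02 to 0.42 for HFC and HF75, with 4 of 6. The pairing was weakest for HFC and HF20, at -0.39 to 0.32, with 3 of 6. The gene names, roles and lists were chosen with earlier results of these data known. The text names, in each comparison, up to 10 genes called, otherwise the 3 with the smallest p, and the widest changes. Scripts were tested on simulated data. How few arrays there are sets the precision, and so does their signal: 36.6 to 78.8% of spots were well above background, and 7 to 985 spots per array were saturated. Intensities carry no read depth. One gene of the wider pathway list is not reported here.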

Additional observations from a re-analysis of the deposited data

Results flagged for a closer look

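Of 60 sets of values of named genes within a group of 4 to 10 arrays, 2 held an array far from the others by Dixon's test at 95%, where chance gives about 1 in 20. Psme1 was lowest on the HF75 array of Week 3, at 3.91, with the next HF75 array at 4.34. This is the array on which brown adipocyte markers were far below all other arrays. Psmb4 was highest on the HF75 array of Week 18, at 4.60, with the next at 4.33.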

How the results depend on the processing

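Under 29 alternatives, 538 of 572 counts and medians of the set stayed within limits and 34 moved. The limits were a factor of 1.5 for a count and 1 SD over time points for a median. A count of 0 that stayed 0 was within limits. The SD ran from 0.31 (HF75 against HF5) to 0.76 (HF20 against LFC), wider than many of the medians themselves. Staying within these limits therefore does not show that a value is stable. Of 1257 values of named genes, 0 were called with the opposite sign, 155 no longer passed the test and 20 now did.

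In HF75 against HF20, 14 genes of the set were called with the settings used. This became 0 with normexp background correction, with brightness as a covariate and on dim arrays alone, 7 without the HF75 array of Week 3 and 0 to 17 without single time points (0 without Week 6, 12 or 15). The median of -0.64 became -1.02 with normexp, -0.21 with the brightness covariate and -0.13 on dim arrays, of which HF20 had 2. Of all genes, 5589 were called, 0 with normexp, with brightness or on dim arrays, 1810 without the HF75 array of Week 3 and 0 to 6652 without single time points. The 8 genes of the F test became 0 with normexp, without a filter on dim probes, with brightness, with the skeletal muscle level as a covariate, without the HF75 array of Week 3 and on dim arrays, 14 with the slide as a random block, and 0 to 12 without single time points. In HF20 against HF5, where 0 were called, 9 were with genes well above background on every array, 13 with the slide as a random block, and 0 to 11 without single time points, and the median became -0.068 with brightness. In HF20 against HFC 0 to 12 were called without single time points. The HF75 against HF5 median became -0.59 with normexp. In the trend over days 0 became 2 with quantile normalization, 2 with normexp, 3 with brightness and 1 on dim arrays. Counts over all genes moved alike: 2924 in the F test became 0 to 6455, 356 in the trend over days became 4 to 1734, and 0 in HF20 against HF5 became up to 6767.

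Without the replicate block for the time point, 10 genes were called in HF75 against HF20, 5 in the F test and 0 in HFC against LFC. An unpaired t-test with equal variance of 10 HFC against 10 LFC arrays gave 7 genes of the set at an unadjusted p under 0.05 and 0 after adjustment. The shares of all genes are not set beside these counts, which therefore show nothing particular to the set. Quantile normalization moved the median of all genes from 0.06 to -0.06 in HFC against LFC and from -0.20 to 0.04 in HF20 against HFC. The brightness covariate, the dim arrays and 2 single HFC arrays left out were chosen after seeing earlier or present values. The cause of these changes was not tested. Dim arrays limit the genes near background, such as Psma8 and Psmb11.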
